A study of Bos taurus and Bubalus bubalis with 9 samples.

Results

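Circular RNAs (circRNAs) of hosts with many junctions were examined in cattle muscle and adipose tissue. A circRNA is seen in RNA sequencing as reads across a back-splice junction, where the end of a downstream exon is joined to the start of an upstream one, and the gene that contains the junction is called its host. A host was included when its symbol stood on 15 or more rows of the cattle table, 1 row per junction. That rule chose 139 of 4757 hosts with a symbol, and 2849 of 18535 junctions. The rule counts junctions that had at least 1 read in some library, so the number of rows of a host is not a finding here, and a host could pass it through 1 tissue alone. The cattle libraries were made from longissimus dorsi muscle (cattle_muscle, n = 3) and back subcutaneous fat (cattle_adipose, n = 3) of Nanyang cattle, labelled as high in intramuscular fat. Another group, longissimus dorsi muscle of Xinyang buffalo (buffalo_muscle, n = 3, labelled as low in intramuscular fat), was used only to look up the leading junctions in another species. All animals were weaned at 3 months, castrated at 6 months, fattened from 18 months and were 30 months old. Both cattle tissues came from the same 3 animals, but the labels do not say that equal replicate numbers mark 1 animal. The 3 libraries of a group are whole tissue from separate animals, so fewer cells of a type and less RNA per cell cannot be told apart.

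A gene can give rise to several circRNAs when different pairs of its splice sites are joined, a process called alternative back-splicing. Because circRNAs lack free ends, exonucleases do not degrade them and they tend to outlast the linear transcripts of the same gene. Long genes with many exons, such as those of the sarcomere and the nuclear envelope, offer many possible pairs of splice sites. It is common that 1 of the circRNAs of a host is far more abundant than the others, and in this text that junction is called dominant when it has the highest mean RPM (reads scaled to the depth of the library) over the 6 cattle libraries. The junction with the highest mean RPM within 1 tissue is called the leading junction of that tissue.

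The deposited values corresponded to 15440, 27141 and 21901 back-splice reads in cattle_muscle 1 to 3 and to 12042, 21053 and 14160 in cattle_adipose 1 to 3. The 139 hosts held between 20.8% and 22.8% of these reads in muscle and between 16.1% and 16.5% in adipose tissue. Of the member junctions, 37.7% rested on a single read over all 6 libraries, and only 94 were read in every library. The skeletal muscle hosts among the marker genes had 925, 1424 and 1135 reads in the muscle libraries and 0, 1 and 0 in the adipose libraries. Nearly all of these came from 3 of the 139 hosts, NEB (2266 muscle reads), MYBPC1 (1094) and MYOM1 (50), and the adipose read was of NEB. These marker counts are therefore not separate from the results of those hosts below. Adipocyte hosts had 16, 22 and 7 reads in muscle and 51, 69 and 62 in adipose tissue, and immune hosts had at most 3 reads in any cattle library. Fibroblast and stromal hosts had 134, 125 and 158 reads in muscle and 131, 427 and 136 in adipose tissue, where cattle_adipose 2 stood apart, and endothelial hosts had 15, 15 and 8 and 12, 12 and 1. Of the muscle markers the symbols TTN, TRDN and CACNA1S were not in the table, nor were EBF2, PNPLA2, LIPE and ADIPOQ of the 10 adipocyte markers, but 1205 junctions carried no symbol.

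The 139 hosts had a median of 18 junctions and 90 reads each. NEB, which encodes the giant thin-filament protein nebulin, had 68 junctions, the most of any host. It was followed by MYBPC1, the slow skeletal isoform of myosin-binding protein C, with 47 junctions, UTRN (utrophin, a relative of dystrophin) with 45, BRWD1 (a bromodomain protein) with 43, ABCC9 (the sulfonylurea receptor of muscle potassium channels) with 41 and SYNE1 (nesprin, a linker of the nuclear envelope to the cytoskeleton) with 40. DOCK1 and PREX2, both exchange factors for the GTPase Rac, had 36 each, as did ITPR2, a calcium channel of the endoplasmic reticulum. At the threshold stood 39 hosts with exactly 15 junctions. Only 45 hosts had 15 or more junctions read in muscle and 38 in adipose tissue. Of the 139, 19 reached 15 in both tissues and 75 in neither tissue alone. Of the 2849 junctions, 733 were read in both tissues, 1139 in muscle only and 977 in adipose tissue only, and 1797 were read in 1 library only. By the type given in the table, 2567 junctions (90.1%) were exonic, 220 (7.72%) joined an exon and an intron and 62 (2.18%) lay in introns. One symbol, TPM1 (a tropomyosin), covers 2 gene IDs on chromosomes 10 and 3, with 10 and 9 rows, so it passes the rule by symbol and not by gene ID. A gene listed without a symbol, ENSBTAG00000026986, had 90 rows and was left out by the rule.

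Junctions of a host often shared an end. The 5698 ends of the 2849 junctions fell on 3183 distinct positions, and the most used end of a host stood in a median of 5 of its junctions. The dominant junction shared an end with 614 of the 2710 other junctions of these hosts (22.7%). MED17 is a subunit of the Mediator complex. Of its 16 junctions, 8 had the same end at position 1015558 of chromosome 29 (UMD3.1, minus strand), and these 8 held 93.5% of its 810 reads. In PICALM, a clathrin assembly protein, 8 of 27 junctions started at position 9613012 of chromosome 29 and held 69.5% of its reads. In USP13, a deubiquitinase, 8 of 15 junctions started at position 87974292 of chromosome 1 and held 64.3% of the reads. In UVRAG, an autophagy protein, 9 of 18 junctions started at position 56028792 of chromosome 15 and held 79.5%. In NEB, by contrast, no end stood in more than 4 of the 68 junctions, and in SYNE1 none in more than 4 of 40. The dominant junction was shorter on the genome than the median junction of its host in 105 of 139 hosts, with a median span of 9664 bases against 17552 bases over all member junctions.

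Whether a host has 1 main circRNA was described by the share of its back-splice reads in the dominant junction. This was done for the 36 hosts with at least 10 reads in every cattle library; the other 103 hosts did not reach that depth, and 11 of the 139 had a library without any read. The median share over the 36 hosts was 33.4%, with a range from 10.4 to 93.3%. When the dominant junction was chosen on 5 libraries and its share taken in the sixth, the median was 32.8%. The median over hosts was 35.2, 34.1 and 41.3% in cattle_muscle 1 to 3 and 34.1, 37.2 and 30.6% in cattle_adipose 1 to 3, so the tissues overlapped. The dominant junction held more than 50% of the reads in 11 hosts, between 25 and 50% in 16 and less than 25% in 9. Among hosts of the same depth with fewer junctions, the median dominant share was 50.7% with 10 to 14 rows (26 hosts), 83.7% with 5 to 9 rows (25 hosts) and 90.9% with 2 to 4 rows (12 hosts). Part of that order is set by the rule, since a host with more rows has more junctions to divide its reads among. Just inside the threshold, the 7 such hosts with 15 rows had a median of 54.7%, and just outside it the 5 with 14 rows had 51.0%.

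**Figure D1:**
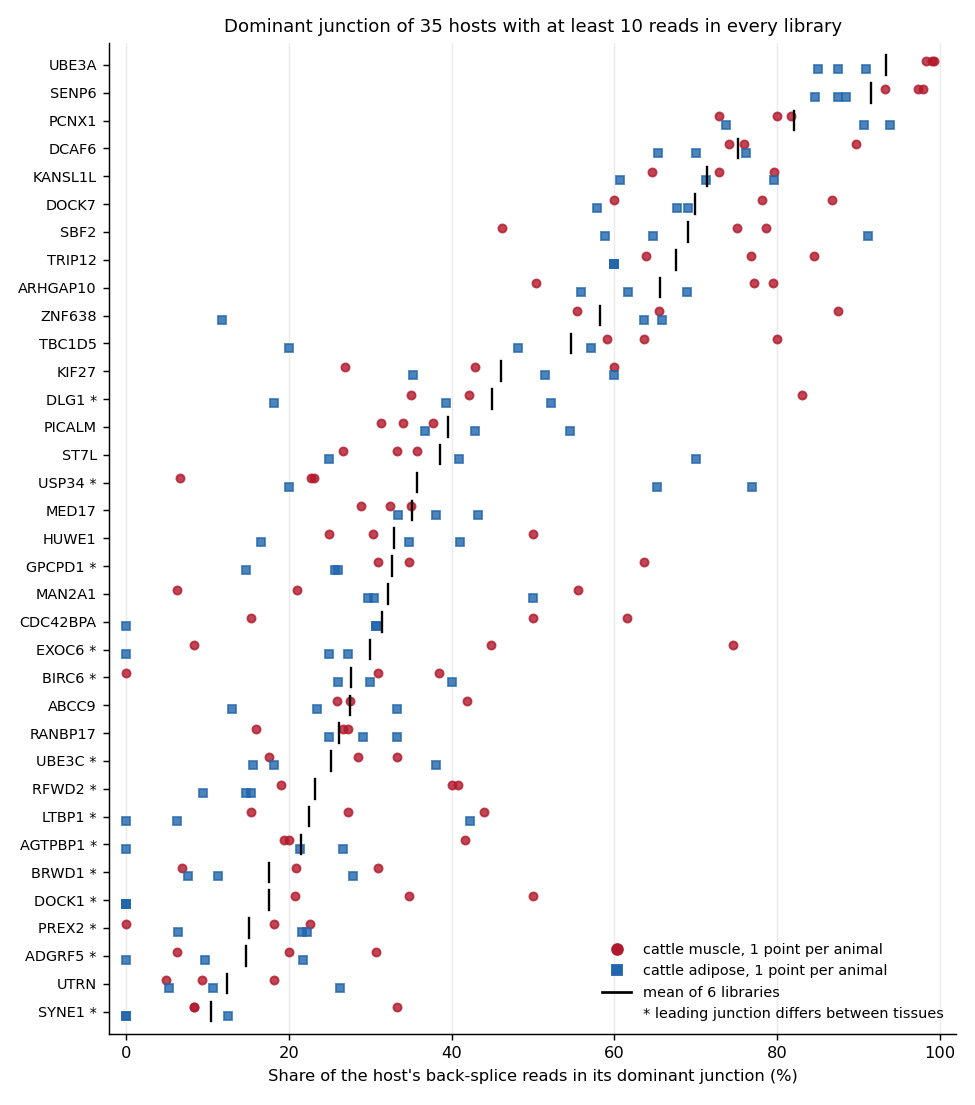
Share of each host's back-splice reads in its dominant junction (horizontal axis, percent) for 35 of the 36 hosts with at least 10 reads in every cattle library, ordered by the mean of 6 libraries (black line). Red circles are the 3 muscle libraries, blue squares the 3 adipose libraries and an asterisk marks a leading junction that differs between tissues; UBE3A and SENP6 lie above 80% in every library, whereas the asterisks fall on hosts with a mean below 50%.

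The reads of 5 hosts were the most concentrated. UBE3A, a ubiquitin ligase that is imprinted in the brain, had 15 junctions, but its junction on chromosome 21, 2404179 to 2410197, took 98.3, 99.0 and 99.2% of its reads in muscle and 90.9, 87.5 and 85.0% in adipose tissue. SENP6, a protease that removes SUMO chains, had a junction on chromosome 9, 15487323 to 15489485, with 97.9, 93.2 and 97.3% in muscle and 88.5, 84.6 and 87.5% in adipose tissue. In both hosts every muscle library lay above every adipose library. PCNX1 followed with 78.2 ± 4.67% in muscle and 86.1 ± 10.8% in adipose tissue (SD, n = 3). DCAF6, a substrate receptor of the CUL4 ubiquitin ligase, had 79.9 ± 8.51% and 70.5 ± 5.46%, and KANSL1L had 72.4 ± 7.48% and 70.5 ± 9.47%. For these 3 the tissues overlapped. NEB could not enter this group because it had a single adipose read. In muscle its junction on chromosome 2, 44660522 to 44671994, took 94.7, 93.3 and 91.0% of 607, 968 and 691 reads. Of its 68 junctions, 33 had 1 read and only 3 had 10 reads or more. Nebulin is built of many similar repeats, and how reads from such exons were assigned is not given in the sources used here, so the exact place of that junction is uncertain.

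The reads of other hosts were spread over many junctions. SYNE1 had 12, 24 and 18 reads in muscle and 12, 24 and 12 in adipose tissue, and its dominant junction took 8.33, 8.33 and 33.3% of them in muscle and 0, 12.5 and 0% in adipose tissue. A number of equally used junctions that would give the same spread of its mean RPM (the inverse of the summed squared shares) was 22.5 for SYNE1 and 19.7 for UTRN. For DOCK1 it was 9.91, for MED17 4.89 and for UBE3A 1.04. The dominant junction of UTRN took 10.9 ± 6.71% in muscle and 14.1 ± 10.9% in adipose tissue. ADGRF5, an adhesion receptor of the vessel wall, had 19 ± 12.3% and 10.5 ± 10.9%, and PREX2 had 13.6 ± 12.0% and 16.8 ± 8.94%. Most of these SDs are of the size of the shares themselves, and few reads stand behind them. A share of 4 of 20 reads, as for ADGRF5 in cattle_muscle 1, has an exact 95% interval from 5.73 to 43.7%. MYBPC1, like NEB a sarcomere gene, divided its muscle reads in another way. Its dominant junction on chromosome 5, 65790613 to 65793791, took 27.0, 34.4 and 32.0% of its reads in the 3 muscle libraries, the next, 65814732 to 65821075, took 24.9, 20.6 and 24.8%, and 8 of its 47 junctions had 10 reads or more. Both stood in this order in each muscle library, and MYBPC1 had no adipose read.

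**Figure D2:**
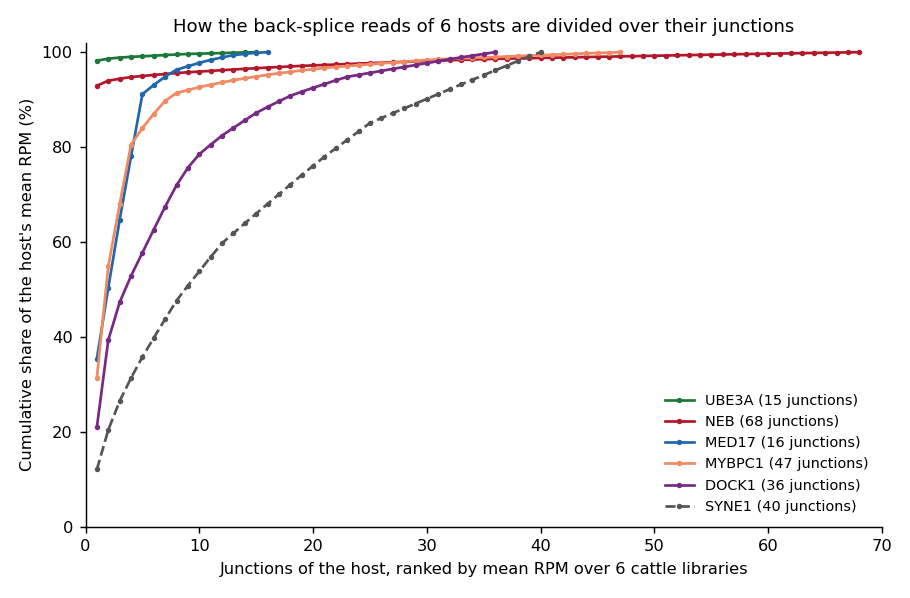
Cumulative share of a host's mean RPM over 6 cattle libraries (vertical axis, percent) against its junctions ranked from the most to the least read (horizontal axis). Each line is 1 host: UBE3A and NEB pass 90% at the first junction, MED17 at the fifth, and SYNE1 only at junction 30 of its 40.

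The share of the dominant junction was then compared between tissues. It was higher in muscle in 24 of the 36 hosts and lower in 12. In 7 hosts (19.4%) the 3 muscle and the 3 adipose libraries did not overlap, and over all 99 hosts of this depth with 2 or more junctions the percentage was 19.2, so the members stood at the background. All 7 were higher in muscle. Of the 99 hosts, 13 (13.1%) were without overlap and higher in muscle, out of the 19 without overlap. The dominant junction was chosen by mean RPM over the same libraries, which favours the tissue with more reads of a host, so the direction is a description. Besides UBE3A and SENP6 these were TRIP12, TBC1D5, GPCPD1, RFWD2 and DOCK1. With 3 libraries against 3 an exact permutation test (two-sided) cannot go below 0.1, and p was 0.1 for each of the 7. TRIP12, a ubiquitin ligase, had 63.9, 84.5 and 76.8% in muscle and 60.0% in each adipose library. TBC1D5, a regulator of Rab GTPases, had 63.6, 59.1 and 80.0% in muscle and 57.1, 48.1 and 20% in adipose tissue, the lowest of these from only 10 reads.

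A test over single junctions asked whether the share of its host that a junction takes differs between tissues. limma was applied to the arcsine square root of the shares of 324 junctions of all hosts with at least 10 reads in every library and a mean share of at least 5%. No junction passed an adjusted p of 0.05, so the percentage called was 0.0, and 38 (11.7%) had an unadjusted p under 0.05. Of the 153 junctions of the 36 hosts tested here, 0 passed and 15 (9.80%) had an unadjusted p under 0.05. edgeR's diffSpliceDGE on the recovered reads called 2 of the 324, of which 1 belongs to a host with many junctions. That one was the muscle-leading junction of DOCK1, with an adjusted p of 0.00115 in edgeR, 0.0883 in limma and up to 0.321 under the other settings tried.

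The leading junction differed between muscle and adipose tissue in 14 of the 36 hosts (38.9%), against 23.2% over all 99 hosts of this depth. The leaders were chosen on these values, so the count is a description. The 99 hosts include the 36. In hosts with fewer rows the percentage was 11.5 with 10 to 14 rows, 20 with 5 to 9 and 8.33 with 2 to 4. It was 28.6 in the 7 hosts with 15 rows and 20 in the 5 with 14. Part of that order is set by the rule, since a host with more rows has more junctions that can lead. None of the 11 hosts with a dominant share over 50% was among the 14, and the median dominant share was 22.9% in the 14 and 50.4% in the other 22. The 14 were USP34, EXOC6, GPCPD1, BIRC6, DOCK1, RFWD2, SYNE1, AGTPBP1, LTBP1, PREX2, ADGRF5, BRWD1, DLG1 and UBE3C. In 3 of them both leaders shared an end. Some leaders were set by the scaling to depth alone. Summed over the 3 adipose libraries, both leaders of ADGRF5 had 8 of 70 reads. Over the 3 muscle libraries both had 11 of 78 reads in PREX2 and 9 of 50 in USP34. In DLG1 the muscle leader had 125 of 272 muscle reads and the adipose leader 128. Leaders also changed between libraries of a tissue. Between 2 libraries of the same tissue, the same junction led in 52.8 to 66.7% of the 36 hosts (median 58.3%, 6 pairs), and between 1 muscle and 1 adipose library in 47.2 to 66.7% (median 61.1%, 9 pairs), so both ranges overlapped. When leaders were chosen on 2 libraries per tissue and looked up in the 2 libraries left out, 35 cases of different leaders arose in 19 hosts. The muscle leader was ahead of the adipose leader in the left-out muscle library in 19 of the 35, and the adipose leader was ahead in the left-out adipose library in 15. Both held in 5 cases: 3 of 3 for DOCK1, 1 of 3 for RFWD2 and 1 of 3 for SYNE1. Few reads stood behind the adipose side of these cases. The adipose leader was ahead by 3, 4 and 3 reads against 0 for DOCK1 and by 3 against 2 for RFWD2. For SYNE1 it was 1 read against 0 in each tissue. When a leader had to reach at least 2 times the mean RPM of the next junction in both tissues, a rule added after the values were seen, 15 hosts remained and in 0 of them did the leader differ.

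**Figure D3:**
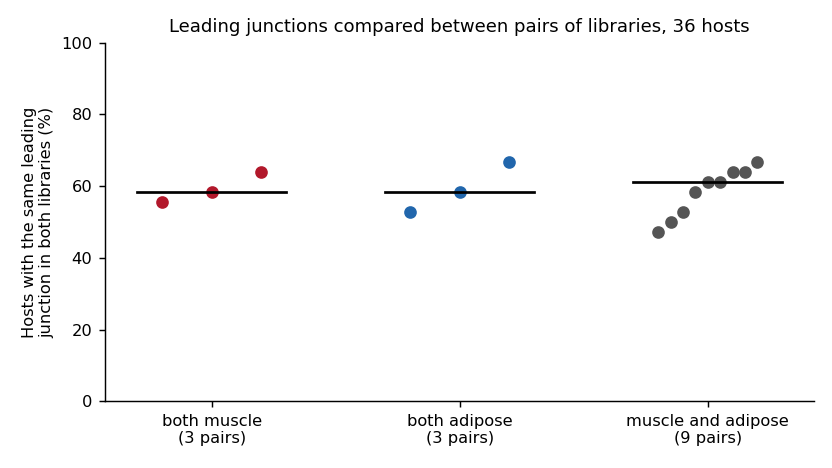
Percentage of the 36 hosts in which the same junction led in both libraries of a pair (vertical axis), for the 3 pairs of muscle libraries, the 3 pairs of adipose libraries and the 9 pairs of a muscle with an adipose library. Each point is a pair and the line is the median; the 3 sets of pairs overlap, with values between 47.2 and 66.7%.

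DOCK1, which acts in cell engulfment and in the fusion of myoblasts, was the only one of the 19 hosts whose leaders held in each of 3 rounds, although without cattle_adipose 3 its adipose leader was another junction, 46852427 to 46856780. Its muscle leader lay on chromosome 26, 46813634 to 46822655 (plus strand, exonic, 9022 bases on the genome). It had 16 of 46, 16 of 77 and 20 of 40 DOCK1 reads in the muscle libraries, or 34.8, 20.8 and 50%. In the adipose libraries it had 0 of 10, 0 of 38 and 0 of 40. Over the 88 adipose reads together a count of 0 allows a share of up to 3.41% when the limit is set at 3 reads, or 4.11% by the exact 95% interval, and the share over the 163 muscle reads was 31.9% (exact 95% interval 24.8 to 39.6%, counting error only). The adipose leader, 46792157 to 46805693, took 13.0, 19.5 and 22.5% in muscle and 30.0, 10.5 and 22.5% in adipose tissue, so its shares overlapped. The muscle leader was read in muscle only, but its share did not pass the limma test described above. Its level was 0.423, 0.379 and 0.560 RPM in muscle and 0 in each adipose library, values that also chose it as the muscle leader. The summed DOCK1 junctions were 1.39 ± 0.380 RPM in muscle and 0.774 ± 0.436 RPM in adipose tissue, a log2 difference of 0.45 ± 0.19 (SE) that did not pass (adjusted p = 0.208).

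GPCPD1 is a phosphodiesterase of glycerophosphocholine. Its muscle leader on chromosome 13, 48112472 to 48120962, took 31.0, 34.8 and 63.6% in muscle and 26.1, 25.6 and 14.8% in adipose tissue. Its adipose leader, 48107122 to 48114649, took 26.1, 25.6 and 25.9% in adipose tissue and 0, 6.52 and 0% in muscle. In 2 adipose libraries both junctions had equal reads, 6 and 6 in the first and 10 and 10 in the second. The limma adjusted p for the share of the adipose leader was 0.119. In BIRC6, a large inhibitor of apoptosis with ubiquitin-conjugating activity, a junction on chromosome 11, 15007052 to 15031275, took 30.8, 27.6 and 50% in muscle and 0, 4.35 and 0% in adipose tissue (adjusted p = 0.0883). It led the mean of muscle, although in cattle_muscle 1 and 2 the adipose leader, 15071396 to 15072818, was slightly ahead with 38.5 and 31.0%. These BIRC6 values rest on 10 to 29 reads per library.

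In RFWD2, EXOC6, USP34, DLG1, AGTPBP1 and LTBP1 a leader of 1 tissue was behind the other in at least 1 library of that tissue. RFWD2, a ubiquitin ligase also known as COP1, had a muscle leader with 40, 19 and 40.7% in muscle and 15.4, 14.8 and 9.52% in adipose tissue, without overlap, but its adipose leader was not ahead in cattle_adipose 1. EXOC6, a subunit of the exocyst, had a muscle leader with 8.33, 74.5 and 44.8% in muscle, and its adipose leader had no muscle read and 6.25, 15.2 and 40% in adipose tissue. The muscle leader took 25, 27.3 and 0% there, so it was ahead in 2 of the 3 adipose libraries. USP34, a deubiquitinase, had a junction on chromosome 11, 59976575 to 59987610, with 20, 76.9 and 65.2% in adipose tissue and 23.1, 22.7 and 6.67% in muscle. DLG1, a scaffold protein of cell junctions, had a large shift inside muscle. One junction on chromosome 1, 72179980 to 72201465, took 42.2, 83 and 35% in cattle_muscle 1 to 3, and another with the same end, 72196316 to 72201465, took 53.9, 3.77 and 58.1%. The first of these had the higher mean share in muscle and the second the higher mean RPM. By mean share, a rule added after the values were seen, 10 hosts changed leader, all of them among the 14, and DLG1, USP34, PREX2 and UBE3C did not. For AGTPBP1, an enzyme that trims glutamate chains of tubulin, and LTBP1, a binding protein of latent TGF-beta, the shares of both leaders overlapped between tissues.

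**Figure D4:**
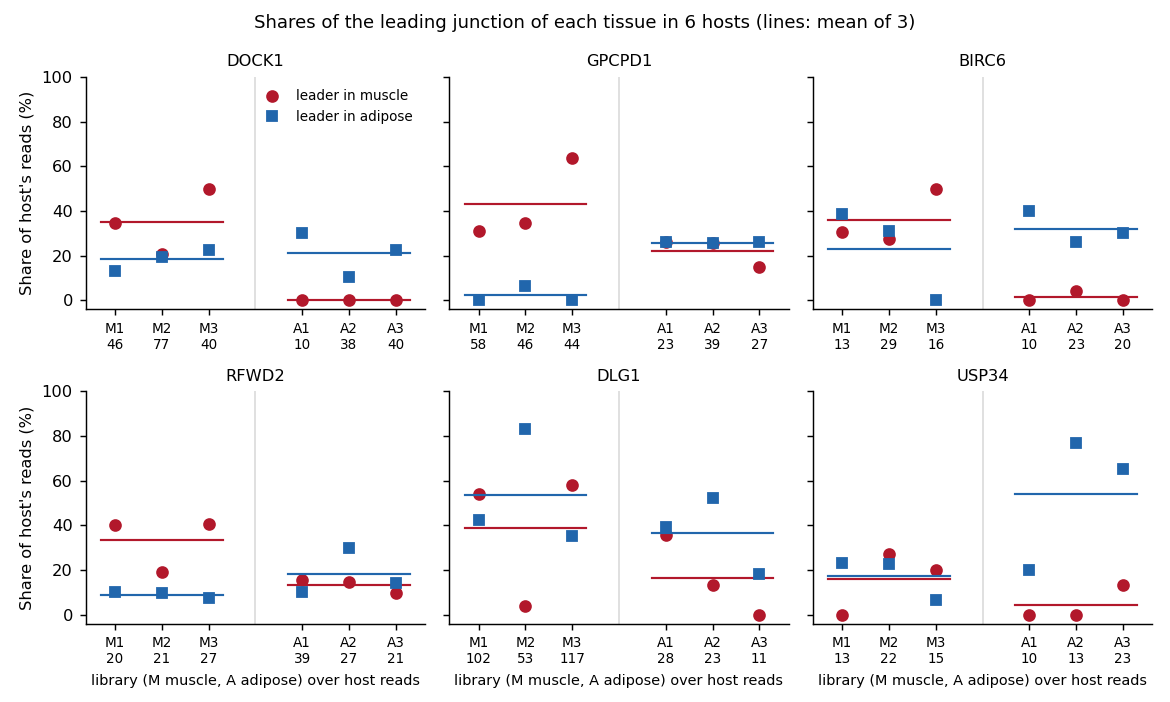
Shares (vertical axis, percent of the host's back-splice reads) of the muscle leader (red circles) and the adipose leader (blue squares) in each cattle library for 6 hosts, with the host's reads printed under each library and lines at the mean of 3. In DOCK1 the muscle leader lies between 20.8 and 50% in muscle and at 0 in each adipose library; in DLG1 the leaders change places within muscle.

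The output of each host was compared as the sum of its junctions. Of 964 hosts tested with limma on log2(RPM + 1), 75 (7.78%) passed an adjusted p of 0.05. Of the 135 members tested, 17 (12.6%) passed, 13 higher in muscle and 4 lower. Of these 17, 9 had 15 or more junctions only in the tissue where they were higher, among them NEB, MYBPC1, ADAMTS20, MLIP and ACACA, and none in both tissues, so the choice of members fixed part of this count. Of all 964 hosts, 59 (6.12%) were higher and 16 (1.66%) lower. The median log2 difference, muscle minus adipose tissue, was 0.00 over the 135 members and 0.01 over all hosts tested. With values scaled to the sum of all junctions of a library, 33 members passed, 17 higher and 16 lower, out of 154 hosts in all, 76 higher and 78 lower, and the 17 hosts named here kept their calls. NEB showed the largest value, with 16.1, 22.9 and 19.3 RPM in muscle and 0, 0.0269 and 0 RPM in adipose tissue. Its ratio of 2266 to 1 reads was 2209-fold, with an exact 95% interval from 396 to 87299. MYBPC1 had 7.75, 9.20 and 11.5 RPM in muscle and no adipose read, at least 119-fold higher when each adipose library is set to 3 reads. UBE3A had 12.6, 9.11 and 17.6 RPM in muscle and 0.597, 1.29 and 0.515 RPM in adipose tissue, a log2 difference of 2.95 ± 0.22 (SE, adjusted p = 3.48e-05). For NEB and MYBPC1 the adjusted p was 2.75e-08 and 1.59e-07. Both met the host filter, the minimum of reads for a host to be tested, through muscle alone. Their difference was thus contained in the filter, and these adjusted p values are not separate evidence for it. Together NEB, MYBPC1 and UBE3A held between 30.8 and 39.2% of member reads in muscle and between 0.857 and 1.45% in adipose tissue.

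The other hosts that were higher in muscle had smaller differences on the log2(RPM + 1) scale, which understates the change of hosts with few reads. MLIP, a lamin-interacting protein of striated muscle, had 35, 132 and 121 reads in muscle and 0, 1 and 0 in adipose tissue (log2 difference 1.69 ± 0.26, adjusted p = 0.00432). Its ratio of reads, scaled to depth, was 281 with an exact 95% interval from 50 to 11129. MLIP met the host filter through muscle alone, so its difference too was contained in the filter. USP13 rose from 0.125 ± 0.0830 RPM in adipose tissue to 1.92 ± 0.594 RPM in muscle (adjusted p = 0.000614). SENP6 had 3.68 ± 0.516 RPM in muscle and 0.955 ± 0.702 RPM in adipose tissue (adjusted p = 0.00522), and DLG1 had 2.41 ± 1.04 and 0.554 ± 0.245 RPM (adjusted p = 0.0133). The DLG1 call held under 11 of 15 other settings, with an adjusted p of up to 0.219, and was lost without cattle_muscle 1 or 3 or cattle_adipose 3. The remaining 6 were TFDP2 (a partner of E2F factors), ADAMTS20 (a secreted metalloprotease), PIAS2 (a SUMO ligase), LAMA2 (a laminin chain of the muscle basement membrane), CDC14A (a phosphatase) and DYSF (dysferlin, which acts in membrane repair), with log2 differences from 0.44 to 0.71. ADAMTS20 had 79 reads in muscle against 2 in adipose tissue, a ratio of 38.5 with an exact 95% interval from 10.3 to 324. It met the host filter through muscle alone as well. The calls of CDC14A and DYSF each held under 8 of 14 other settings and were lost in 5 of 6 fits without 1 library, with an adjusted p of up to 0.254 and 0.179. Those of LAMA2 and PIAS2 each held under 11 of 15, with an adjusted p of up to 0.130. LAMA2 was lost without cattle_muscle 2 or 3 or cattle_adipose 1, and PIAS2 without cattle_muscle 2 or 3 or cattle_adipose 3. Lower in muscle were ADGRL3, ACACA, UVRAG and HERC6. ADGRL3, an adhesion receptor of the latrophilin family, had 0.265, 0.426 and 0.140 RPM in muscle and 0.896, 1.10 and 1.80 RPM in adipose tissue (log2 difference -0.81 ± 0.15, adjusted p = 0.0101). ACACA, the acetyl-CoA carboxylase of fatty acid synthesis, had 0, 2 and 0 reads in muscle and 17, 29 and 21 in adipose tissue, a ratio of 34.4 with an exact 95% interval from 9.15 to 290. It met the host filter through adipose tissue alone. UVRAG fell by 0.62 ± 0.13 (adjusted p = 0.0153) and HERC6, a HECT-domain protein, by 0.39 ± 0.10 on the log2 scale (adjusted p = 0.0432). The call of UVRAG held under 10 of 15 other settings, with an adjusted p of up to 0.125, and was lost without cattle_muscle 1 or 3 or cattle_adipose 1 or 2. The call of HERC6 held under 3 of 15 other settings, with an adjusted p of up to 0.163, and was lost with edgeR, DESeq2 and each left-out library. MED17 had the highest adipose level, 3.20, 6.83 and 4.87 RPM against 0.979, 3.19 and 2.16 RPM in muscle, without overlap but with an adjusted p of 0.0642. Its 5 most read junctions all have the end described above, and the dominant one took 32.4, 28.9 and 35.1% in muscle and 43.2, 33.5 and 38.1% in adipose tissue.

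**Figure D5:**
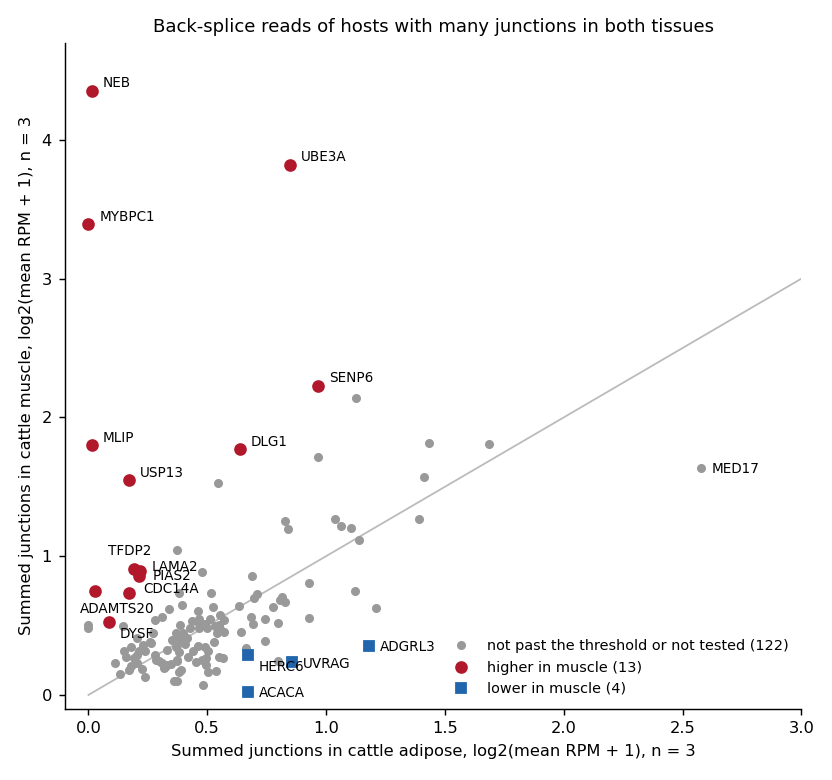
Summed junctions of the 139 hosts as log2(mean RPM + 1), cattle adipose on the horizontal and cattle muscle on the vertical axis, with the line of equal values; each point is a host and the mean of 3 libraries. Red circles are the 13 hosts higher in muscle and blue squares the 4 lower in muscle by limma; NEB, UBE3A and MYBPC1 lie farthest above the line, and MED17, labelled, did not pass.

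Hosts were grouped by function, and the count of each list is to be read beside 7.78% of all hosts and 12.6% of members called, with a median difference of 0.01 over all hosts. Of the 4 members in the sarcomere and Z-disc list, NEB and MYBPC1 were higher in muscle (median log2 difference 1.93), while TPM1 had a difference of 0.33 (adjusted p = 0.219). The TPM1 value sums the 2 gene IDs under that symbol, with 9 of 10 and 8 of 9 rows in introns. MYOM1, a myosin-binding protein of the M-band, had 6, 30 and 14 reads in muscle and no adipose read, with an adjusted p of 0.0606. Of the 4 in the list of excitation-contraction coupling and the sarcolemma, 1 (DYSF) was higher, a call that held under 8 of 14 other settings. Of the 15 DYSF junctions, 13 were read in muscle and 5 in adipose tissue. UTRN, SYNE1 and SYNE2 had differences between -0.10 and 0.04. Of the 15 members of the ubiquitin system, 2 (UBE3A and USP13) were higher and none lower, with a median of 0.05. UBE3C, another ubiquitin ligase, had 2.28 ± 0.564 RPM in muscle and 0.953 ± 0.665 RPM in adipose tissue (adjusted p = 0.0545). Of the 2 members in the extracellular matrix list, LAMA2 was higher, a call that held under 11 of 15 other settings. LAMA4, a laminin chain of vessels and fat, had 0.185 ± 0.115 RPM in muscle and 0.740 ± 0.362 RPM in adipose tissue (adjusted p = 0.0606). Of the 2 in the lipid and adipocyte list, ACACA was lower in muscle, and ABCA9, a lipid transporter, had a difference of -0.10 (adjusted p = 0.741). None of the 6 chromatin regulators (among them BRWD1, CHD2, ARID1B and KMT2C), the protein kinases reported here (PAN3, PTK2 and ATM) or the 4 RNA-binding proteins (LARP1B, ANKRD17, MBNL1 and XRN1) passed the test. ACACA is also 1 of the 10 adipocyte marker hosts and NEB, MYBPC1 and MYOM1 are among the 14 muscle marker hosts whose reads are given above, of which 10 had a read in muscle and 1 in adipose tissue. How much of these differences follows from the number of muscle fibres or adipocytes in a sample was not tested.

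Single junctions were tested in the same way. Of 1917 junctions with at least 2 reads in at least 3 cattle libraries, 62 passed (3.23%), 59 of them higher in muscle (3.08%) and 3 lower (0.156%). Of the 319 member junctions that met the filter, 17 passed (5.33%), all higher in muscle, from 11 hosts. Of the 17, 9 had 2 reads in no adipose library and met the filter through muscle alone, so their difference was contained in the filter. These were 6 of MYBPC1 and those of NEB, MLIP and DOCK1. Directions depended on the setting. Scaled to the junction sum, 63 of all junctions were higher and 33 lower, and in members 16 and 5. In members 17 were higher and 4 lower with a replicate block, and 28 and 3 with a pseudocount of 0.1. MYBPC1 held 6 of the 17 and USP13 held 2. NEB, UBE3A, SENP6, DLG1, TFDP2, MLIP and DOCK1 held 1 each, as did LARP1B and HERC1. The calls of LARP1B and HERC1 each held under only 2 of 15 other settings, with an adjusted p of up to 0.152 and 0.165. That of TFDP2 held under 12 of 15 (adjusted p up to 0.0821) and those of USP13 under 10 and 14 (up to 0.124 and 0.0566). One MYBPC1 junction, 65793625 to 65814899, held under 10 of 15 (up to 0.0780). In UBE3A and SENP6 the junction that passed was the dominant one, with log2 differences of 3.01 and 1.36. The call held under all 15 other settings for UBE3A and under 9 of 15 for SENP6 (adjusted p up to 0.124), as for MLIP (up to 0.152). In DLG1 it was 72179980 to 72201465, at 1.14, 1.04 and 1.15 RPM in muscle and 0.299, 0.323 and 0.0515 RPM in adipose tissue (adjusted p = 0.00591). The other main DLG1 junction, 72196316 to 72201465, had 55, 2 and 68 reads in muscle and 10, 3 and 0 in adipose tissue and did not pass (adjusted p = 0.303). In LARP1B the junction that passed (chromosome 17, 29954171 to 29972872, adjusted p = 0.0490) was not the dominant one, and neither LARP1B nor HERC1 passed as a sum.

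The leading junctions were looked up in buffalo muscle, whose values had no part in the choice of hosts. Coordinates in the buffalo table are on the cattle genome too, and the 3 libraries held 1457, 1607 and 1306 reads of the 139 hosts. Of the 741 member junctions read in buffalo muscle, 402 were also read in cattle muscle, 54.3% of the buffalo and 21.5% of the 1872 cattle muscle junctions. Of the 62 hosts with at least 10 buffalo muscle reads, 26 (41.9%) had the same leading junction in both species, and of the 30 with at least 20 reads, 18 (60%). Where the dominant junction took more than 50% of the cattle muscle reads this was so in 9 of 12 hosts, and otherwise in 17 of 50. ARHGAP10, a GTPase-activating protein, had the same leader, chromosome 17, 10295155 to 10323185, with 72.5, 82.5 and 63.6% of its reads in buffalo and 69.0 ± 16.2% in cattle muscle. MED17, MYBPC1, PICALM and GPCPD1 shared their leader as well, and that of MYBPC1 took 38.8, 65.0 and 55.7% in buffalo. The muscle leader of cattle had no read at all in buffalo muscle in 14 of the 62 hosts.

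NEB and DOCK1 were among those 14. In buffalo muscle NEB had 670, 749 and 655 reads, of which 94.2, 93.1 and 93.6% fell on the junction 44653304 to 44660629. That junction had no read in any cattle library, and the cattle leader, 44660522 to 44671994, had none in buffalo muscle. The intervals of both leaders meet in 108 bases. In both tables more than 90% of NEB muscle reads were thus listed on 1 junction, at different coordinates. Since the place of junctions in the repeated exons is uncertain, whether the junctions themselves differ was not tested. DOCK1 had 18, 19 and 11 reads in buffalo muscle, and its leader there was 46792157 to 46805693, with 83.3, 63.2 and 90.9%. This is the junction that led DOCK1 in cattle adipose tissue, and the junction that led it in cattle muscle was not read in buffalo muscle. LARP1B, a La-related protein, was another such case, with 81.2, 60.9 and 83.3% of its buffalo reads on chromosome 17, 30054876 to 30064195, which had 5 reads in the 6 cattle libraries, and none on the cattle leader, 30061534 to 30064195. Species, farm, labelled fat content and the number of back-splice reads (4472 to 6122 per buffalo library) differ together here and cannot be told apart.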

How the data were processed

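RNA was extracted with TRIzol and libraries were made from total RNA with a TruSeq RNA kit and sequenced as paired ends. Per the labels, reads were trimmed with Trim Galore and processed with STAR, Cufflinks 2.2.1 and Cuffdiff on UMD3.1, while the caller of back-splice junctions is not given in the sources used here. The authors deposited RPM per junction. In each of the 9 columns used, 100% of values were whole multiples of 1 read (tolerance 0.01 reads), 0.0237 to 0.0280 RPM in cattle, so reads were recovered. Another 9 columns, of buffalo adipose tissue, were not used here, nor were the mRNA and lncRNA tables. Some single genes of the lists are not reported here.

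Hosts with 15 or more rows and the function lists were chosen with earlier results of these data known. Named hosts are those with most rows, the highest levels, the highest and lowest dominant shares, differing leaders, the largest changes, and up to 4 of each list. ADAMTS20, CDC14A, DLG1, HERC1, ITPR2, PIAS2, TBC1D5 and TFDP2 fall outside this rule and were named after their values were seen. limma 3.58.1 was run in R 4.3.3 on log2(RPM + 1) for junctions (2 reads in 3 of 6 libraries) and hosts (5 reads in 3 of 6), and on arcsine square root shares, with Benjamini-Hochberg adjustment at 0.05. edgeR 4.0.16 (with and without TMM) and DESeq2 1.42.0 on recovered reads, another pseudocount (0.1), filters, scalings, depth minimums and leaving out each library were alternatives. The tests were tested on simulated data. Intervals are exact binomial at 95% and cover counting error only.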

Additional observations from a re-analysis of the deposited data

How the results depend on the processing

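The direction of the 17 hosts and 17 junctions named as different between tissues did not reverse under any setting tried, and 6 hosts (ACACA, MYBPC1, NEB, TFDP2, UBE3A and USP13) and 9 junctions (1 each of DLG1, DOCK1, NEB and UBE3A, 5 of MYBPC1) passed under each in which they were tested (ACACA did not meet the stricter filter). Of these 9 junctions, those of DOCK1, NEB and MYBPC1 met the filter through muscle alone. Among the hosts, NEB, MYBPC1, MLIP and ADAMTS20, with at most 2 adipose reads each, met the host filter through muscle alone. ACACA, with 2 muscle reads, met it through adipose tissue alone. Whether other called hosts, such as DYSF, met it through 1 tissue alone was not tested. Of 15 settings, the host calls of SENP6 and MLIP held in 14, ADGRL3 in 13, DLG1, LAMA2 and PIAS2 in 11, UVRAG in 10 and HERC6 in 3, and of 14, ADAMTS20 in 13 and CDC14A and DYSF in 8. Counts of calls moved more. Junctions numbered 62 in all and 17 in members. They were 123 and 31 with a pseudocount of 0.1, 163 and 37 with edgeR and TMM, 113 and 29 with edgeR without TMM, 115 and 28 with DESeq2, 36 in all with no filter and 96 in all scaled to the junction sum. Hosts numbered 75 in all and 17 in members. They were 154 and 33 scaled to the junction sum, 147 and 28 with edgeR and TMM, 140 and 26 with DESeq2 and 38 and 8 with no filter. In all hosts they were also 132 with a pseudocount of 0.1, 48 with a stricter filter, 134 with a mean-variance trend and 124 with edgeR without TMM.

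Without 1 library at a time, junctions ranged from 24 (without cattle_adipose 3) to 70 in all and from 9 to 17 in members, and hosts from 41 (without cattle_muscle 3) to 75 in all and from 9 to 17 in members. Junctions in all also fell to 36 without cattle_muscle 3, 26 without cattle_adipose 1 and 41 without cattle_adipose 2. Member junctions fell to 11 without cattle_muscle 3, 10 without cattle_adipose 1 and 9 without cattle_adipose 3, and hosts in all to 49 without cattle_adipose 3.

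With the replicate number as a replicate block, 119 hosts passed, 29 of them members, with 86 junctions in all, 21 in members and 0 in the share test. Deviations of same-numbered muscle and adipose libraries correlated at 0.238, 0.169 and -0.0156 over junctions, and the labels do not tie equal numbers to an animal, so this pairing was not used.

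The share test, which called 0 junctions in all and in members, called 2 and 1 weighted by host reads, 3 and 1 with at least 20 host reads, 4 and 2 with no filter on the share and 2 and 1 with diffSpliceDGE. The muscle junction of DOCK1 passed in 3 of these settings (adjusted p 0.0145, 0.0394 and 0.00115), that of BIRC6 in 1 (0.0394) and the adipose junction of GPCPD1 in 1 (0.0157).

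The median dominant share of 33.4% was 39.5% over 13 hosts with at least 20 reads, 44.9% with the threshold at 10 rows, and 33.1 to 35.3% without 1 library. Leaders differed in 14 of 36 hosts, in 5 of 13 with at least 20 reads, in 32 of 69 with at least 5 reads, in 10 to 14 without 1 library, and in 0 of 15 where the leader had at least 2 times the next junction, a rule chosen after seeing the data. The same leader in cattle and buffalo muscle was found in 23 of 44, 20 of 41 and 23 of 44 hosts without buffalo_muscle 1, 2 or 3, against 26 of 62. Only 13 of the 36 hosts had 20 reads or more in every library, so differences of a few reads between junctions could not be resolved at this depth.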
